A study of Homo sapiens with 2 samples.

Results

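The SLC25 mitochondrial carriers were examined in MOLM-13 cells, taken as every gene of the deposited table whose symbol is SLC25A followed by a number. The rule found 48 of the 50868 genes in the table. Carriers with another style of name, such as the uncoupling proteins UCP1, UCP2 and UCP3, lie outside it. MOLM-13 is a human AML line that carries the KMT2A::MLLT3 fusion. RNA of 1 Vector library (OE-Control) and 1 library labelled as over-expressing UNC5B (OE-UNC5B) was sequenced. Per the study's methods, the cells were infected with lentivirus and selected with puromycin, and the UNC5B plasmid used a CMV promoter and carried mCherry. As each group is a single library, differences could not be checked against replicates, and the conditions were not tested.

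SLC25 proteins are encoded in the nucleus, and most sit in the inner mitochondrial membrane, which is otherwise tight to charged metabolites. Most exchange a metabolite of the cytosol for a metabolite of the matrix. They thereby connect ATP production, the citric acid cycle, amino acid breakdown, one-carbon metabolism and heme synthesis with the rest of the cell. In proliferating leukemia cells these routes carry citrate out for lipid synthesis and aspartate out for nucleotide synthesis.

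The libraries held 13715566 (Vector) and 15637137 (OE-UNC5B) counted reads. UNC5B had 0 reads in each, under the floor of 3 reads (0.222 CPM in Vector and 0.189 CPM in OE-UNC5B), so each direction rests on the label alone, and the name OE-UNC5B-labelled library is used for that reason. Of 9 markers of the AML line, 7 had at least 10 reads over both libraries, among them PTPRC, CD33, SPI1 and FLT3. ANPEP and KIT had at most 2 reads in each library. The summed level of the 9 markers was 4883 CPM in Vector and 2544 CPM in the OE-UNC5B-labelled library, and LYZ (51742 against 23700 reads) made up most of the sum in each. LYZ and MPO had log2 ratios of -1.36 and -1.35, past 2-fold, while 4 of the 7 markers lay above 0, among them PTPRC at 0.73 and FLT3 at 0.42, and the median of the 7 was 0.14. Markers of fibroblast, epithelial, endothelial and muscle cells summed to at most 2.52 CPM per list in each library, and DCN, EPCAM, CDH5 and CKM were at 0. COL1A1 (21 against 9 reads, log2 ratio -1.41) and COL1A2 (8 against 2 reads, log2 ratio -2.002) were the fibroblast markers with at least 10 reads. The 95% interval from the reads was -2.77 to -0.27 for COL1A1, and that of COL1A2, -5.51 to 0.09, held 0. Whether these marker values have a part in the carrier values was not tested.

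Counts were scaled by TMM, and ratios are given as log2 of the OE-UNC5B-labelled library over Vector with 0.5 reads added to each count. Where first given, the ratio of a carrier comes with its 95% interval from the reads. This exact Clopper-Pearson interval covers counting error only and compares 2 libraries, not the conditions. Of the 48 carriers, 38 had at least 10 reads over both libraries, and 37 of these had at least 50. SLC25A21, SLC25A31, SLC25A47, SLC25A48 and SLC25A52 had 0 reads in both, so each was under the floor of 3 reads in each library. SLC25A2, SLC25A18, SLC25A27, SLC25A41 and SLC25A45 had at most 5 reads in a library, and these 5 were left out of the ratios. The carriers together took 0.361% of the reads in Vector (95% Clopper-Pearson interval 0.357 to 0.364%) and 0.363% in the OE-UNC5B-labelled library (0.360 to 0.366%). The intervals of these shares overlapped.

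Levels of different carriers were compared as RPKM, the reads per kilobase of canonical transcript at the scaled depth. SLC25A6 was the most abundant, at 684 in Vector and 737 in the OE-UNC5B-labelled library. SLC25A5 followed at 505 and 446, and SLC25A3, the phosphate carrier, at 89.0 and 84.8. These 3 carriers kept ranks 1, 2 and 3 in Vector with the coding length in place of the transcript length, and with the deposited FPKM values. Rank 4 depended on the length used, being SLC25A1 with the transcript, SLC25A37 with the coding length and SLC25A23 with FPKM. Carriers with at least 50 reads reached down to SLC25A53, at 0.370 in Vector and 0.547 in the OE-UNC5B-labelled library.

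**Figure D1:**
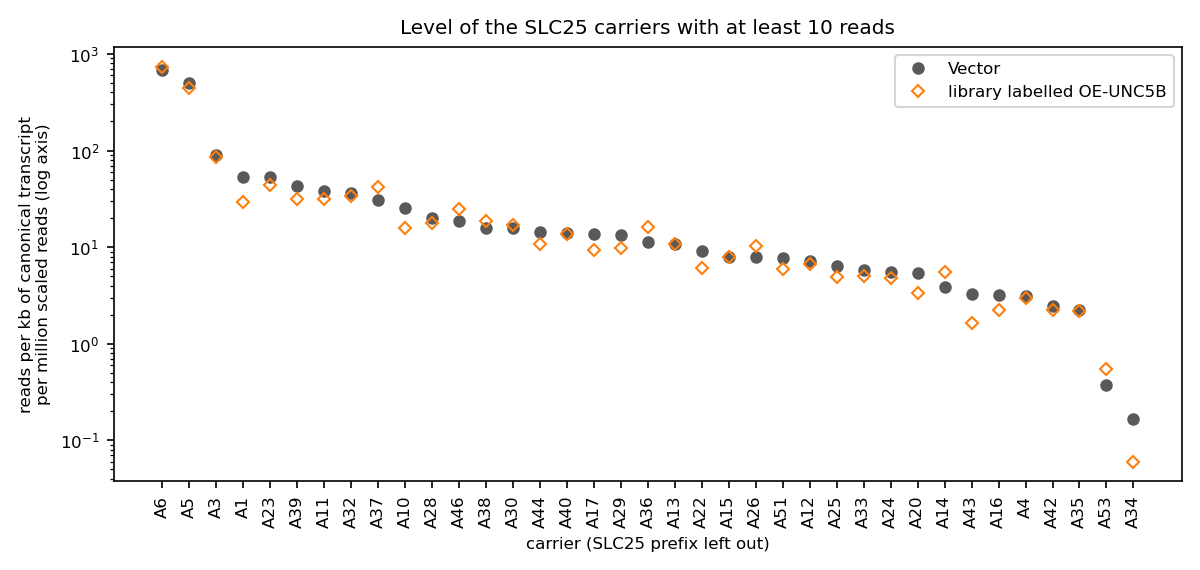
Level of 37 carriers with at least 10 reads, as RPKM over the canonical transcript on a log axis, in Vector (filled circles) and the OE-UNC5B-labelled library (open diamonds), with 1 library each and no error bars. SLC25A6, SLC25A5 and SLC25A3 stand above all others in both libraries.

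The length behind the deposited FPKM values differed from that of the canonical transcript for most carriers. The length implied by count, library total and FPKM was longer than the canonical transcript for 36 of the 38 carriers with at least 10 reads, and the median ratio of these lengths over the 38 was 2.44. It was 21556 nt against 2291 nt for SLC25A29, 9.41 times as long, and 10892 nt against 1581 nt for SLC25A39. It was shorter for SLC25A15, at 2371 nt against 3821 nt. SLC25A33, which has 1 annotated transcript, had 3854 nt against 3865 nt. Ratios between the libraries do not use this length, but the order of the carriers does. In Vector, SLC25A39 was at rank 6 per canonical transcript and at rank 15 by FPKM, SLC25A29 at 19 and 33, and SLC25A15 at 23 and 9.

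**Figure D2:**
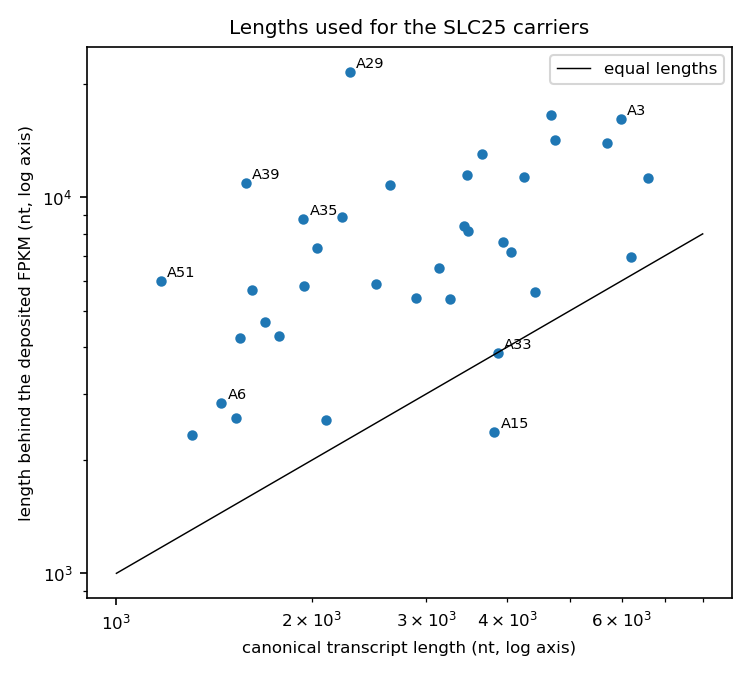
Length behind the deposited FPKM against the length of the canonical transcript in nt, both on log axes, for 36 carriers with at least 50 reads. Points above the line are carriers whose FPKM used a longer length, and SLC25A29, at 21556 nt against 2291 nt, lies farthest above it.

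Carriers share a repeated signature, in which a proline is followed after any residue by an acidic residue and, after any 2 further residues, by a basic residue. Read in frame in the canonical coding sequence, 27 of the 48 carriers held it 3 times and 3 held it 4 times. SLC25A46, SLC25A51, SLC25A52 and SLC25A53 held none that match these letters. Coding lengths ran from 274 to 678 residues with a median of 314, and 42 of 48 lay between 250 and 400. SLC25A12 and SLC25A13, at 678 and 675 residues, were the longest. The stretches below surround the first signature of 6 carriers, with its 18 bases in capitals. They are shown because SLC25A1, SLC25A10 and SLC25A22 were lower and SLC25A36 was higher in the OE-UNC5B-labelled library, and because SLC25A5 and SLC25A6 are abundant paralogs whose ratios lay on different sides of 0.
SLC25A1: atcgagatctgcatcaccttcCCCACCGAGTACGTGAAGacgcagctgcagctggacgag
SLC25A10: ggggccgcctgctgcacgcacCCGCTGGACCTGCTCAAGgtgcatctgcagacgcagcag
SLC25A22: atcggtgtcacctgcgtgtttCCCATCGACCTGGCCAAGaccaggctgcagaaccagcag
SLC25A36: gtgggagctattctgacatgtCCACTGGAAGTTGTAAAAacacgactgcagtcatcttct
SLC25A5: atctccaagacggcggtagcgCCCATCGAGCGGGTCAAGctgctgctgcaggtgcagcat
SLC25A6: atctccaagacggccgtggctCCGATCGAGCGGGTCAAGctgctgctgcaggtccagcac
The sequences are coding strand, 5′ to 3′, from GENCODE 44 on GRCh38. The SLC25A1 stretch lies in exon 2 of 9 on chromosome 22 from 19178164 to 19178223 (minus strand), and the SLC25A22 stretch in exon 3 of 10 on chromosome 11 from 794802 to 794861 (minus strand). The SLC25A36 stretch lies in exon 2 of 7 on chromosome 3 from 140956540 to 140956599 (plus strand). The other stretches cross from exon 1 to exon 2, on chromosome 17 from 81712481 to 81714973 (plus strand) for SLC25A10. For SLC25A5 and SLC25A6 they lie on chromosome X, from 119468576 to 119469669 (plus strand) and from 1389719 to 1391949 (minus strand), introns included. GC content was 70.0% in the SLC25A10 stretch and 58.3% in that of SLC25A1, and the SLC25A36 stretch was the poorest of the 6 in GC.

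Most carriers differed little between the libraries. None of the 38 was higher by at least 2-fold, against 5.15% of all 15384 genes with at least 10 reads and 3.93% of protein-coding genes. By the same fold 2 of 38 (5.26%) were lower, SLC25A43 and SLC25A34, against 4.79% of all genes and 4.28% of protein-coding genes. At a 1.5-fold difference, 0 carriers were higher against 12.9% of all genes and 10.7% of protein-coding genes. At that fold 6 carriers (15.8%) were lower, against 12.5% of all genes and 11.6% of protein-coding genes. The shares of lower carriers were near the background. The median log2 ratio of the 38 carriers was -0.15, against -0.01 over all genes, and 28 of 38 (73.7%) lay below 0, against 50.6% of all genes. The interval from the reads left out 0 for 24 of 38 carriers (63.2%), 7 above it and 17 below, against 51.4% of all genes and 58.8% of protein-coding genes. Scaling by library totals shifts all log2 values up by 0.047. With this shift the intervals of SLC25A3, SLC25A32 and SLC25A51 hold 0, and that of SLC25A30 lies above it. Carriers were read more deeply than other genes, with a median of 412.5 reads in Vector against 269.5 over all genes.

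**Figure D3:**
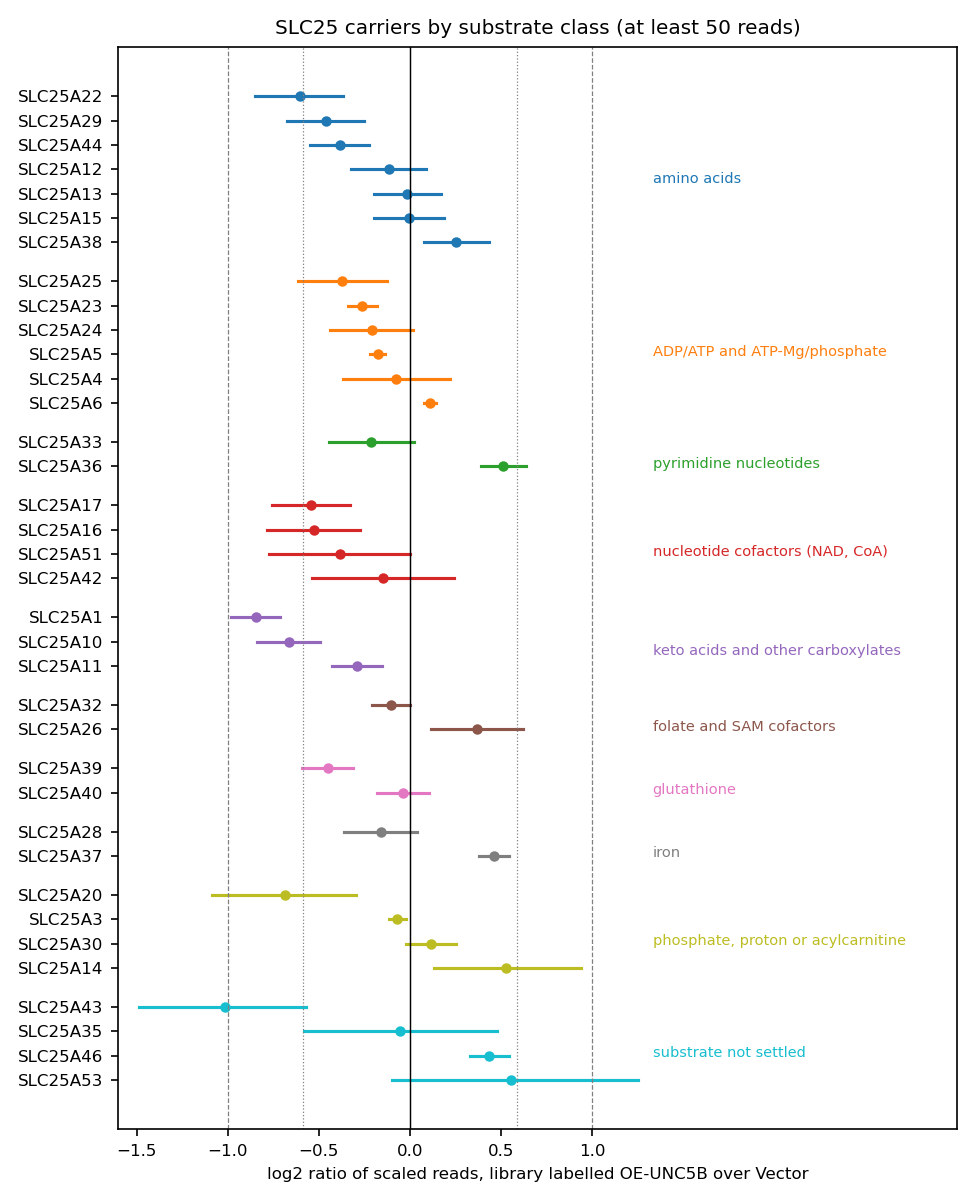
Log2 ratio of scaled reads, OE-UNC5B-labelled library over Vector, for 36 carriers with at least 50 reads, ordered within substrate classes. Points are ratios, bars are 95% intervals from the reads (counting error only), dotted lines mark 1.5-fold and dashed lines 2-fold differences. All carriers of the keto acid and carboxylate, nucleotide cofactor and glutathione classes lie below 0, where 73.7% of the carriers with at least 10 reads lie. SLC25A43 is the 1 carrier past the dashed line, and none passes the dotted line on the higher side.

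Of the carriers of keto acids and other carboxylates, 2 of the 3 with enough reads were lower by 1.5-fold, SLC25A1 and SLC25A10, against 12.5% of all genes. SLC25A1, the citrate carrier that supplies cytosolic acetyl-CoA for fatty acid and sterol synthesis, lies on chromosome 22 from 19175575 to 19178830. It had 1107 reads in Vector against 725 in the OE-UNC5B-labelled library, a log2 ratio of -0.85 (interval -0.98 to -0.71), or 1.80-fold lower. SLC25A10, the dicarboxylate carrier that exchanges malate or succinate for phosphate, lies on chromosome 17 from 81712236 to 81721016. It had 661 against 491 reads, a log2 ratio of -0.66 (-0.84 to -0.49), or 1.59-fold lower. A readthrough gene covers 46.6% of its exon bases on the same strand and had 0 reads in both libraries, so how the reads were split between them is uncertain. SLC25A11, the oxoglutarate carrier of the malate-aspartate shuttle, had 871 against 839 reads, a log2 ratio of -0.29 (-0.43 to -0.15). SLC25A21, which carries oxoadipate, had 0 reads in both. All 3 lay below 0, as did 73.7% of the carriers and 50.6% of all genes, with SLC25A1 the farthest from it. Their summed reads made up 5.34% of all carrier reads in Vector (95% interval 5.14 to 5.54%) and 3.62% in the OE-UNC5B-labelled library (3.46 to 3.77%). The class median was -0.66, or -0.44 once the trend over GC content and length given further on was subtracted. SLC25A10 then stood at -0.44, short of 1.5-fold, and SLC25A11 at -0.12. With FPKM and 1 added SLC25A10 was also short of that fold, at -0.54.

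The 100 bases before the start that the deposited table gives for the citrate and dicarboxylate carrier genes are shown with every match to the searched motifs in capitals.
SLC25A1: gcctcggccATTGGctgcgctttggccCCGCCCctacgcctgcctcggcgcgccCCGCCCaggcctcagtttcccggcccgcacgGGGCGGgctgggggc
SLC25A10: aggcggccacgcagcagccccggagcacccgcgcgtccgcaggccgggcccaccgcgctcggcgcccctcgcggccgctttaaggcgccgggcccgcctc
They lie at chr22:19178831-19178930 (minus strand) and chr17:81712136-81712235 (plus strand) of GRCh38.p14, as read from RefSeq. The RefSeq starts themselves lie within the gene spans of the table. The motifs searched on both strands were the GC box (GGGCGG), the CCAAT box (CCAAT), the TATA box (TATAAA), the palindromic NRF1 element, the ERR element (TCAAGGTCA) and the C/EBP-ATF element (TGATGCAA). The SLC25A1 stretch holds 3 GC boxes and 1 CCAAT box, and the SLC25A10 stretch, with a GC content of 83.0%, holds 0 matches. Over 300 bases around the RefSeq start, 40 carriers had a promoter in the table used, and 28 of them (70.0%) held a GC box, against 44.6% of 27305 promoters. The CCAAT box was held by 19 of the 40 (47.5%) against 35.7%, and the TATA box by 3 (7.5%) against 11.95%. Over these 300 bases SLC25A1 and SLC25A10 each held a GC box and a CCAAT box. The NRF1, ERR and C/EBP-ATF letters were in 0 of the 40, against 1.36%, 0.359% and 0.923% of all promoters. A GC box was held by all 5 carriers that were lower by 1.5-fold with at least 50 reads, and by 24 of the 32 carriers with at least 10 reads and a promoter in the table. The median GC content was 79.0% for these 5, 69.0% for the 32 and 58.3% over all promoters.

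Among the amino acid carriers, the glutamate carrier SLC25A22 and the arginine and lysine carrier SLC25A29 lay below 0, the aspartate exchangers and the ornithine carrier were close to 0, and the glycine carrier lay above it. SLC25A22, which brings glutamate into the matrix with protons, had 327 reads in Vector against 253 in the OE-UNC5B-labelled library, a log2 ratio of -0.61 (-0.85 to -0.37). At 1.52-fold lower it was the 1 carrier of 7 in its class past 1.5-fold, against 12.5% of all genes. It fell short of that fold with library totals (-0.56) and with FPKM and 0.1 (-0.53) or 1 (-0.36) added. The same held with the trend over GC content and length subtracted (-0.43). Its paralog SLC25A18 had 4 reads against 0.
SLC25A29, a carrier of arginine, lysine and ornithine, had 413 against 353 reads, a log2 ratio of -0.46 (-0.67 to -0.25). SLC25A44, linked to branched-chain amino acids, had 666 against 601 reads, a log2 ratio of -0.38 (-0.55 to -0.22). Both lay below 0 by more than counting error, but short of 1.5-fold.
SLC25A12, an aspartate-glutamate exchanger of the malate-aspartate shuttle, had 384 against 417 reads, a log2 ratio of -0.12 (-0.32 to 0.09). Its paralog SLC25A13, citrin, had 462 against 539 reads, a log2 ratio of -0.01 (-0.20 to 0.17). SLC25A15, the ornithine carrier of the urea cycle, had 412 against 483 reads, also a log2 ratio of -0.01 (-0.20 to 0.19). For these 3 the reads did not separate the libraries, and the intervals leave room for differences of up to 0.32 on the log2 scale. SLC25A38, which supplies glycine for the first step of heme synthesis, had 448 against 629 reads, a log2 ratio of 0.25 (0.08 to 0.43). The other 6 amino acid carriers with enough reads lay below 0, where 73.7% of the carriers and 50.6% of all genes lay, although with library totals SLC25A13 and SLC25A15 came to 0.03 and 0.04. The class held 6.30% of carrier reads in Vector (6.09 to 6.52%) and 5.76% in the OE-UNC5B-labelled library (5.57 to 5.96%), with a median log2 ratio of -0.12.

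The ADP/ATP carriers, which exchange cytosolic ADP for ATP made in the matrix, held close to the same share of carrier reads in both libraries. Their share was 45.4% in Vector (45.003 to 45.9%) and 46.6% in the OE-UNC5B-labelled library (46.2 to 47.0%). The intervals of these shares did not overlap, and the log2 ratio of their summed reads was 0.001. SLC25A6 had 13383 against 17006 reads, a log2 ratio of 0.11 (0.08 to 0.14). SLC25A5 had 8901 against 9273 reads, a log2 ratio of -0.18 (-0.22 to -0.14). The intervals of these main paralogs did not overlap, so the reads on SLC25A6 were 1.504 times those on SLC25A5 in Vector and 1.83 times in the OE-UNC5B-labelled library. SLC25A4, the isoform of heart and muscle, had 185 against 207 reads, a log2 ratio of -0.07 (-0.37 to 0.22). SLC25A31, the isoform of the testis, had 0 reads. The coding sequences of SLC25A5 and SLC25A6 are 897 bases long and identical at 78.8% of positions, and no stretch of 75 bases of either canonical transcript occurs in a transcript of a differently named gene. The 41 rows named as pseudogenes of carriers held 19 reads in Vector against 24 in the OE-UNC5B-labelled library.

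The ATP-Mg/phosphate carriers, which are gated by calcium and change the total adenine nucleotide content of the matrix, lay below 0 in all 3 cases with enough reads, as did 73.7% of the carriers and 50.6% of all genes. SLC25A23 had 2485 against 2442 reads, a log2 ratio of -0.26 (-0.34 to -0.18). SLC25A24 had 317 against 323 reads, a log2 ratio of -0.21 (-0.44 to 0.02). SLC25A25 had 293 against 267 reads, a log2 ratio of -0.37 (-0.62 to -0.13). The interval of SLC25A24 held 0. SLC25A25 shares 11.2% of its exon bases with the antisense gene SLC25A25-AS1 (230 against 205 reads), and whether counting used strand is not given in the sources used here.

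Of the pyrimidine nucleotide carriers, SLC25A36 lay above 0, and the interval of SLC25A33 held 0. SLC25A36, on chromosome 3 from 140941830 to 140979933, had 875 against 1470 reads, a log2 ratio of 0.51 (0.39 to 0.63), or 1.43-fold higher. SLC25A33, its paralog, had 306 against 311 reads, a log2 ratio of -0.21 (-0.45 to 0.02), which is uncertain since 14.7% of the 75-base stretches of its transcript also occur in other genes. Their intervals did not overlap, and together they went from 2.39% of carrier reads (2.26 to 2.53%) to 3.13% (2.99 to 3.28%). The carriers of nucleotide cofactors lay below 0 in all 4 cases with enough reads, beside the same 73.7% of carriers and 50.6% of all genes, with a median of -0.46. SLC25A16 and SLC25A42, both linked to coenzyme A, had 283 against 231 and 109 against 116 reads, log2 ratios of -0.53 (-0.79 to -0.27) and -0.15 (-0.54 to 0.24), the latter with an interval that holds 0. SLC25A17, which serves the peroxisome and not the mitochondrion, had 409 against 331 reads, a log2 ratio of -0.54 (-0.76 to -0.33), just short of 1.5-fold. SLC25A51, the NAD carrier, had 122 against 110 reads, a log2 ratio of -0.39 (-0.77 to -0.0021). With library totals it was -0.34, which takes the upper end of its interval over 0. Its value is uncertain, since 28.7% of the 75-base stretches of its transcript also occur in SLC25A52 or other near copies.

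The folate carrier SLC25A32, which brings tetrahydrofolate into the matrix for one-carbon metabolism, was nearly level. It had 1432 reads in Vector against 1569 in the OE-UNC5B-labelled library, a log2 ratio of -0.10 (-0.21 to -0.00028). It shares 11.1% of its exon bases with DCAF13 on the opposite strand (2644 against 3239 reads). It shares 69.7% with a gene on the same strand that has no row in the deposited table, so the value of SLC25A32 is uncertain. The carrier of S-adenosylmethionine, SLC25A26, had 218 against 331 reads, a log2 ratio of 0.36 (0.12 to 0.62). The interval of SLC25A26 lay above 0, and that of SLC25A32 ended just below it.

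The mitoferrins, which import iron for heme and iron-sulfur clusters, differed from each other. SLC25A37 (mitoferrin-1), on chromosome 8 from 23528805 to 23575463, had 1917 against 3112 reads, a log2 ratio of 0.46 (0.38 to 0.55), or 1.38-fold higher. SLC25A28 (mitoferrin-2) had 409 against 431 reads, a log2 ratio of -0.16 (-0.36 to 0.04). Reads on SLC25A37 were 4.69 times those on SLC25A28 in Vector and 7.22 times in the OE-UNC5B-labelled library, without regard to length. As RPKM over the canonical transcript, SLC25A37 and SLC25A28 were closer, at 30.4 and 19.9 in Vector and 41.9 and 17.8 in the OE-UNC5B-labelled library. SLC25A37 and the glycine carrier SLC25A38 are known for their role in red cell precursors, so erythroid markers were examined beside them. Of 11 such markers, 8 had 0 reads in both libraries, including ALAS2, KLF1 and HBA1. HBB had 14 against 8 reads, a log2 ratio of -1.01 with an interval of -2.50 to 0.31 that holds 0. EPOR had 192 against 171 reads, a log2 ratio of -0.40 (-0.71 to -0.10), and TFRC was at -0.01 (-0.06 to 0.03). The list summed to 584 CPM in Vector against 575 CPM in the OE-UNC5B-labelled library, nearly all on TFRC.

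Of the remaining carriers, those past 1.5-fold were lower. SLC25A43, a carrier with no settled substrate on chromosome X from 119399060 to 119454478, had 112 reads in Vector against 65 in the OE-UNC5B-labelled library. Its log2 ratio was -1.02 (-1.49 to -0.57), or 2.02-fold lower, just past 2-fold. With library totals it was -0.97, short of 2-fold. SLC25A20, the carnitine-acylcarnitine carrier that brings fatty acids to beta-oxidation, had 130 against 95 reads, a log2 ratio of -0.69 (-1.09 to -0.30), or 1.61-fold lower. SLC25A34 had 7 against 3 reads, and its log2 ratio of -1.34 had an interval of -4.04 to 0.67, which holds 0. The next 3 carriers were chosen after their values were seen. The glutathione carriers SLC25A39 and SLC25A40 had log2 ratios of -0.45 (-0.59 to -0.31) and -0.04 (-0.18 to 0.10). They stood at -0.26 and -0.25 once the trend over GC content and length was subtracted. The phosphate carrier SLC25A3 had 7183 against 8063 reads, a log2 ratio of -0.07 (-0.12 to -0.02). With library totals SLC25A3 was at -0.02, and its interval then holds 0.

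Ratios of the carriers went with base composition. Across the 38 carriers, Pearson's r between GC content of the canonical transcript and log2 ratio was -0.46 and Spearman's rho was -0.46, and across 15198 genes they were -0.13 and -0.18. These are correlations across genes of the same 2 libraries, which are not independent replicates, and no test was made. The 6 carriers with a GC content of 60% or more had a median log2 ratio of -0.53, and the 13 carriers under 45% had a median of -0.07. Over all genes the medians of these bins were -0.15 and 0.09. SLC25A6, with a GC content of 60.7%, stood above 0. After subtracting the trend of all genes on GC content and length, SLC25A1 was at -0.62, SLC25A43 at -0.99 and SLC25A20 at -0.61. SLC25A10 and SLC25A22 were then at -0.44 and -0.43, short of 1.5-fold, and SLC25A16 was at -0.73, past it. SLC25A36 and SLC25A37 were at 0.27 and 0.41.

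**Figure D4:**
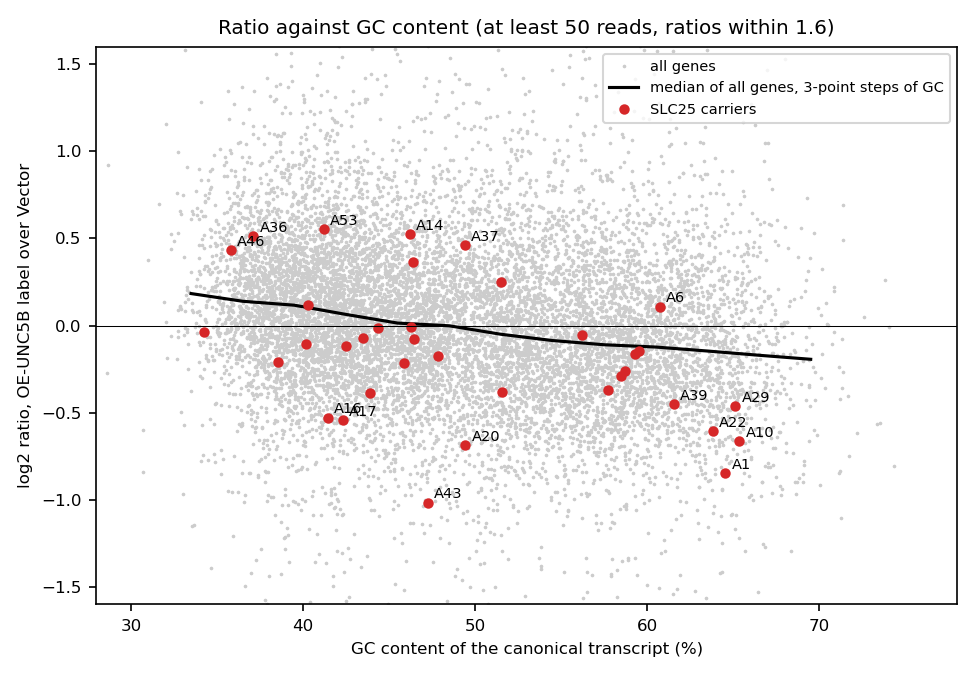
Log2 ratio, OE-UNC5B-labelled library over Vector, against GC content of the canonical transcript in percent, for genes with at least 50 reads (grey) and SLC25 carriers (red). Carriers past 0.42 in size and SLC25A6 are named, and genes beyond 1.6 are not drawn. The black line, the median of all genes in 3-point steps of GC content, slopes down, and SLC25A1, SLC25A10 and SLC25A22 lie below it at the GC-rich end.

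Other mitochondrial genes were set beside the carriers. The carriers named outside the rule had 4 of 5 genes with enough reads, all below 0, with a median of -0.46 and 0 past 1.5-fold. Below 0 lay 73.7% of the SLC25 carriers and 50.6% of all genes, with medians of -0.15 and -0.01. Over all genes the shares past 1.5-fold were 12.9% higher and 12.5% lower. Of 16 other transporters of the inner membrane, 0 were higher and 4 lower by 1.5-fold, with a median of -0.32. Of 20 general mitochondrial genes, 1 was higher and 2 were lower by 1.5-fold, with a median of -0.20. Among 32 enzymes that use the carriers' substrates, 4 were higher and 4 lower by 1.5-fold, with a median of -0.25. By 2-fold, 2 of the 32 were higher and 0 lower, against 5.15% and 4.79% of all genes. MTHFD2, a folate enzyme of the matrix, had 3080 against 10312 reads, a log2 ratio of 1.51 (1.45 to 1.57), and its paralog MTHFD2L had 58 against 163 reads, a log2 ratio of 1.25 (0.81 to 1.71).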

How the data were processed

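RNA-seq of 1 Vector and 1 OE-UNC5B library of MOLM-13 cells was analysed. The table deposited by the authors gives unnormalized counts of reads for each gene, and FPKM values. The submitters' processing notes name GRCh38, bcl2fastq 2.19, HISAT2 2.0.4 and StringTie 1.3.0, while the tool that counted reads, its annotation and its strand setting are not given in the sources used here. TMM factors (edgeR 4.0.16 in R 4.3.3) scaled the counts, and ratios were kept for genes whose reads summed to 10 or more. Intervals used scipy 1.17.1. GENCODE 44 gave canonical transcripts with length and GC content, and 49659 of 50868 identifiers and all 48 carriers matched. Promoters came from RefSeq (GRCh38.p14).

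Because the counts are unreplicated, no model was fitted and no p-value is given, and genes were counted by fold. Full values are given for carriers with at least 50 reads that passed 1.5-fold or carry amino acids, nucleotides, keto acids, folate or iron. Ratios of listed non-carriers are given if past 2-fold, and those of PTPRC, FLT3, EPOR and TFRC were added after their values were seen. The members, substrate classes and lists were chosen with earlier results of these data known. Alternatives tried were scaling by library totals or by DESeq2 1.42.0, 2 reads added, other minimum counts, FPKM with 0.1 or 1 added (minimum 1 in either library), and a fold joined with an interval. The subtraction of a lowess trend on GC content and length (statsmodels 0.14.6) was chosen after seeing the data. The procedure was tested on simulated data. The values of 1 carrier are not reported here, and it is left out of the plots but kept in the counts and medians.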

Additional observations from a re-analysis of the deposited data

How the results depend on the processing

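No paired analysis was possible because each group is a single library, which also meant that none could be left out. The number of carriers lower by 2-fold was 2, and it was 1 with library totals, with at least 50 reads, with the interval required to leave out 0 and after subtracting the trend over base composition and length, and 0 with FPKM values and 0.1 or 1 added. SLC25A43 and SLC25A34 decide this count, and SLC25A34 has 10 reads in all. Carriers lower by 1.5-fold numbered 6, and 1 with FPKM and 1 added, a setting that also changes the scaling and the minimum (FPKM with 0.1 added gave 4). They numbered 4 to 6 under the other settings with a minimum. Without a filter, carriers with 1 to 9 reads entered, which gave 6 lower by 2-fold, 10 lower by 1.5-fold and 1 higher at either fold. With library totals 1 carrier was higher by 1.5-fold, SLC25A53. The median of the carriers lay between -0.18 and -0.10 under all settings. Of 222 single values, 198 stayed within the interval of the reported value, and the sign changed for SLC25A13, SLC25A15, SLC25A28, SLC25A35 and SLC25A40, each within 0.16 of 0. No carrier past 1.5-fold changed sign. A gene's FPKM has no counting error attached, and differences within the intervals were not detectable at this depth.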

Other observations

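The following carriers were chosen after their values were seen. SLC25A46, an outer membrane protein of the family linked to mitochondrial shape, had 1180 against 1878 reads, a log2 ratio of 0.43 (0.33 to 0.54), and 0.21 once the trend over GC content and length was subtracted. SLC25A14, an uncoupling protein of the brain type, had 84 against 143 reads, a log2 ratio of 0.53 (0.13 to 0.94). SLC25A53 had 31 against 54 reads, a log2 ratio of 0.55, and its interval of -0.10 to 1.25 holds 0.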
